A study of Mus musculus with 9 samples.

Results

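The 9 genes described here encode parts of the B cell antigen receptor and of secreted antibody, and other proteins of B cells and plasma cells. They are Cd79a, Cd79b, Ms4a1, Ighm, Igkc, Igha, Jchain, Mzb1 and Tnfrsf13c, chosen by symbol, and all 9 were among the 55342 gene names in the files. Of those names, 27531 had a count in at least 1 library. RNA was measured by bulk sequencing of polyadenylated RNA from labial mucosa, the lining of the lip, in 9 mouse libraries.

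The libraries fell into 3 strains of 3 libraries each, labelled Tac111 (replicates 1, 2 and 3), Tac146 (replicates 2, 3 and 4) and B6 (replicates 1, 2 and 3). Per the labels, all mice were infected before the biopsy was taken and the strains carried different mutations. No source used here names the mutated genes, the agent, the time after infection or the ages. The labelled cell type was T cells for Tac111 and Tac146 and type 1 innate lymphoid cells (ILC1) for B6, so strain and labelled cell type cannot be told apart in a comparison with B6. The label and the transcripts differed, since the keratin genes Krt4 and Krt13 of oral epithelium took 5.28 to 8.86% of the counts of a library, and the 13 T cell genes looked at together took 0.0017 to 0.0029%. The values are therefore described as those of mucosa. Nothing in the labels ties the libraries to separate animals. The p-values therefore reflect library-to-library spread within a strain, and this could be technical in origin.

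Total expected counts (estimated reads per gene, which need not be whole) ran from 27192359 to 46456500 per library. Levels are given as rounded counts and as CPM, which sets each count against the scaled depth of its library, and 1 count equalled 0.022 to 0.0361 CPM. Values of a strain are listed in the order of its replicate numbers. Il2rg, which encodes a receptor chain shared by several interleukins, had 4, 3 and 4 counts in Tac111, 242, 131 and 166 in Tac146 and 216, 148 and 145 in B6. Rag1 and Rag2, which together cut the segments of antigen receptor genes, had 4 and 173 pooled counts in Tac111, 205 and 0 in Tac146, and 3 and 0 in B6. Tac146 replicate 4 stood apart from the other libraries in its muscle content, since 8 skeletal muscle genes took 1.63% of its counts and 2.5 to 3.18% in the other 8 libraries. Its macrophage and dendritic cell genes summed to 136.0 CPM, against 276.0 and 236.0 CPM in Tac146 replicates 2 and 3. Lymphoid tissue stroma genes summed to 38.2 CPM there, against 67.2 and 49.4 CPM. For ILC1 and natural killer cell genes the sums were 30.6 CPM, against 24.9 and 30.7 CPM.

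B cells assemble an antibody gene from variable, diversity and joining segments and transcribe it together with a constant region. A heavy chain and a light chain make the antibody, which sits on the B cell surface beside the signalling proteins encoded by Cd79a and Cd79b. Plasma cells are B cells that have turned to secreting antibody. In mucosa, plasma cells are known for making immunoglobulin A, which epithelium carries to the surface.

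Immunoglobulin heavy chains come from 1 locus on chromosome 12 and kappa light chains from a locus on chromosome 6. The first 60 bases of the first constant exon are shown for the heavy chain genes Ighm and Igha and for the light chain gene Igkc, because the account below turns on counts from these 3 constant regions. They come from the GENCODE annotation of GRCm38, the build named in the submitters' processing notes, and are written 5′ to 3′ on the strand of the gene, in lower case throughout.
Ighm, chr12:113422671-113422730, minus strand: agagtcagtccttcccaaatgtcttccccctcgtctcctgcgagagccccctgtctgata
Igha, chr12:113260177-113260236, minus strand: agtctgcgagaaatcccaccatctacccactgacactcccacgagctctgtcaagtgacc
Igkc, chr6:70726435-70726494, plus strand: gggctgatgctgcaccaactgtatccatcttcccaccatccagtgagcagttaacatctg
No stretch of 50 bases in the annotated transcripts of these 3 genes occurred in a transcript of another gene. The annotation places a further gene, Gm30211, over Igkc on the same strand, and it had 0 counts in all 9 libraries.

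Transcripts of the 9 genes were scarce in all 3 strains, apart from Ighm. Summed, the 9 genes took 0.000919 to 0.000993% of the counts of a library in Tac111, 0.000842 to 0.00116% in Tac146 and 0.00121 to 0.00135% in B6. Ighm supplied 2687 of the counts pooled over the 9 libraries, Tnfrsf13c 408 and Igha 184. The other 6 genes had 0 to 61 pooled counts each. Scaled to the length of their exons, the order over all libraries was Ighm at 4.49 CPM per kilobase, Tnfrsf13c at 0.628, Igha at 0.217, Cd79b at 0.134, Igkc at 0.0889, Mzb1 at 0.0726, Cd79a at 0.0303, Jchain at 0.0301 and Ms4a1 at 0. From Cd79b down to Jchain, the counting intervals of neighbours in this order overlapped, being wide at few counts, such as 8.4 to 24.7 counts for Igkc and 7.65 to 23.5 counts for Cd79a. The order differed between strains, since in B6 alone Igkc stood at 0.28 and Igha at 0.242 CPM per kilobase. These are exact 95% Poisson intervals and cover counting error only.

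**Figure D1:**
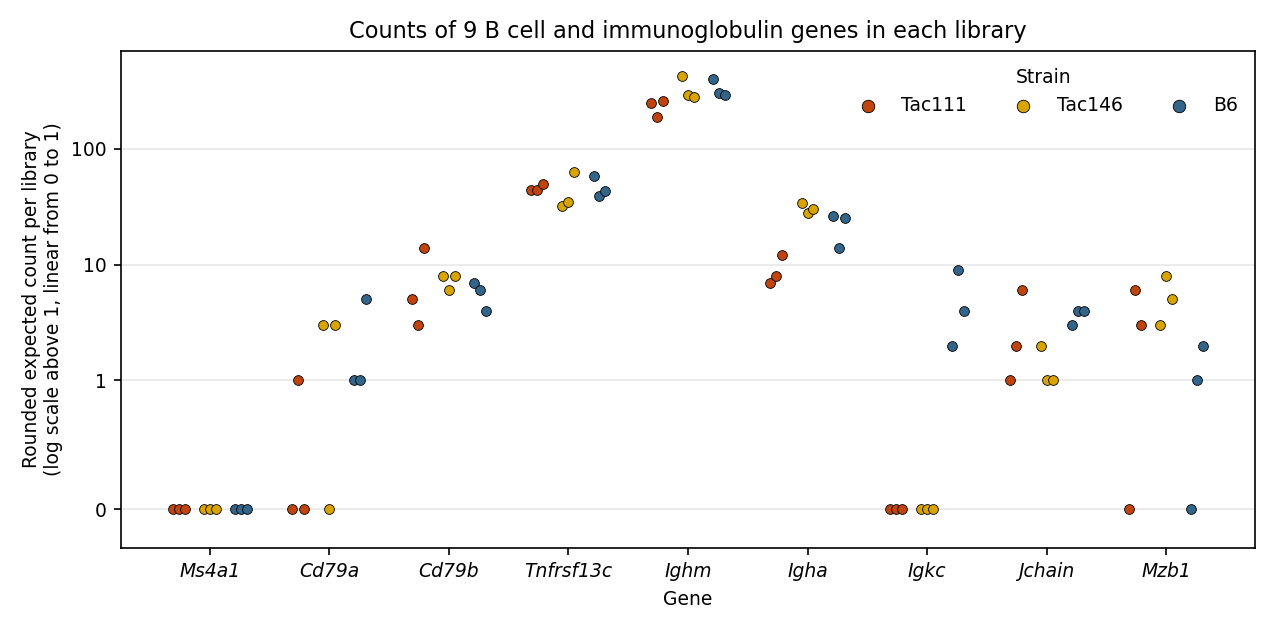
Rounded expected counts per library (vertical axis, logarithmic above 1 and linear from 0 to 1) of the 9 genes, with Tac111, Tac146 and B6 libraries from left to right for each gene. Ighm lies between 186 and 428 counts in all libraries, Ms4a1 at 0 in all, and Igkc at 0 in the 6 Tac111 and Tac146 libraries and at 2 to 9 in B6.

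Ms4a1 (chromosome 19, 11249675 to 11266241, minus strand, GRCm38), which encodes the B cell surface protein CD20, had 0 counts in all 9 libraries. A count of 0 over all libraries allows a level of up to 0.00946 CPM, taking 3 counts as the limit. No strain could therefore be set against another for this gene at this depth.

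Cd79a (chromosome 7, 24897381 to 24902197, plus strand), the first of the signalling pair of the B cell receptor, had 0, 1 and 0 counts in Tac111, 3, 0 and 3 in Tac146 and 1, 1 and 5 in B6. The counts of the strains overlapped, and the ratio of pooled counts per total was 0.154 for Tac111 over B6 (exact 95% counting interval 0.00343 to 1.2). For Tac146 over B6 the ratio was 0.702 (0.195 to 2.44). In the annotation, 8.31% of the 50-base stretches of Cd79a also occurred in Gm32220, so some of these reads could be shared.

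Cd79b (chromosome 11, 106311341 to 106314762, minus strand), the other chain of that pair, was counted in every library. It had 5, 3 and 14 counts in Tac111, 8, 6 and 8 in Tac146 and 7, 6 and 4 in B6. The strains overlapped, with the highest count in Tac111 replicate 3. The ratio of pooled counts per total was 1.4 for Tac111 over B6 (0.709 to 2.81) and 1.06 for Tac146 over B6 (0.537 to 2.13).

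Tnfrsf13c (chromosome 15, 82221743 to 82224369, minus strand) encodes the receptor for BAFF, a survival factor of B cells. It had 44, 44 and 50 counts in Tac111, 32, 35 and 63 in Tac146 and 58, 39 and 43 in B6. Its level was 1.48 ± 0.0933 CPM in Tac111, 1.06 ± 0.341 CPM in Tac146 and 1.39 ± 0.0341 CPM in B6 (SD, n = 3 libraries per strain). Tac146 was the most spread strain, with 0.708, 1.07 and 1.39 CPM in replicates 2, 3 and 4.

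The test of Tnfrsf13c, edgeR's quasi-likelihood test fitted to all genes with Benjamini-Hochberg adjustment, called no difference between strains. The log2 fold change was 0.09 for Tac111 over B6 (SE 0.25, 95% interval -0.45 to 0.64, adjusted p = 0.845) and -0.39 for Tac146 over B6 (SE 0.25, interval -0.94 to 0.15, adjusted p = 0.782). For Tac111 over Tac146 it was 0.49 (SE 0.25, interval -0.06 to 1.04, adjusted p = 0.206), and there all Tac111 libraries lay above all Tac146 libraries, as they did for 17.1% of all genes tested. Without Tac146 replicate 4 that log2 fold change was 0.75 (adjusted p = 0.112) and the one for Tac146 over B6 was -0.66 (adjusted p = 0.837).

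Ighm (chromosome 12, 113418558 to 113422730, minus strand), the constant region of the mu heavy chain of immunoglobulin M, was the most abundant of the 9 genes in every library. It had 247, 186 and 259 counts in Tac111, 428, 290 and 281 in Tac146 and 400, 304 and 292 in B6. As levels, these were 7.92, 6.72 and 7.53 CPM in Tac111, 9.47, 8.91 and 6.19 CPM in Tac146 and 9.55, 10.6 and 9.67 CPM in B6. Every Tac111 and every Tac146 library lay below every B6 library, and the lowest level of all was in Tac146 replicate 4. Scaled by plain library totals instead, Tac146 replicate 2 stood at 9.75 CPM and B6 replicate 3 at 9.35 CPM, so Tac146 and B6 overlapped.

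Ighm averaged 7.39 ± 0.612 CPM in Tac111, 8.19 ± 1.75 CPM in Tac146 and 9.93 ± 0.561 CPM in B6 (SD, n = 3 each). The log2 fold change of Tac111 over B6 was -0.42 (SE 0.16, interval -0.77 to -0.08), with an edgeR adjusted p = 0.163. Its unadjusted p in that edgeR fit was 0.0216. Tac146 over B6 gave -0.28 (SE 0.16, interval -0.62 to 0.07, adjusted p = 0.769), and Tac111 over Tac146 gave -0.15 (SE 0.16, interval -0.49 to 0.2, adjusted p = 0.556). None of the 3 passed the threshold of 0.05. Of the 16523 genes tested, 15.8% had all Tac111 libraries below all B6 libraries, and 6.29% had all Tac146 libraries below all B6 libraries. Without Tac146 replicate 4 the edgeR adjusted p for Tac111 over B6 was 0.0482 at the same log2 fold change of -0.42, and Tac146 over B6 gave -0.11.

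Igha (chromosome 12, 113254830 to 113260236, minus strand), the constant region of the alpha heavy chain of immunoglobulin A, had its lowest levels in Tac111. It had 7, 8 and 12 counts in Tac111, 34, 28 and 30 in Tac146 and 26, 14 and 25 in B6. Its level was 0.287 ± 0.0623 CPM in Tac111, 0.758 ± 0.0994 CPM in Tac146 and 0.645 ± 0.172 CPM in B6 (SD, n = 3 each). All 3 Tac111 libraries lay below the lowest library of either other strain, and the Tac146 and B6 libraries overlapped. Of all genes tested, 18.4% had every Tac111 library below every Tac146 library. In bulk tissue, fewer cells of a type and less RNA per cell cannot be told apart.

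**Figure D2:**
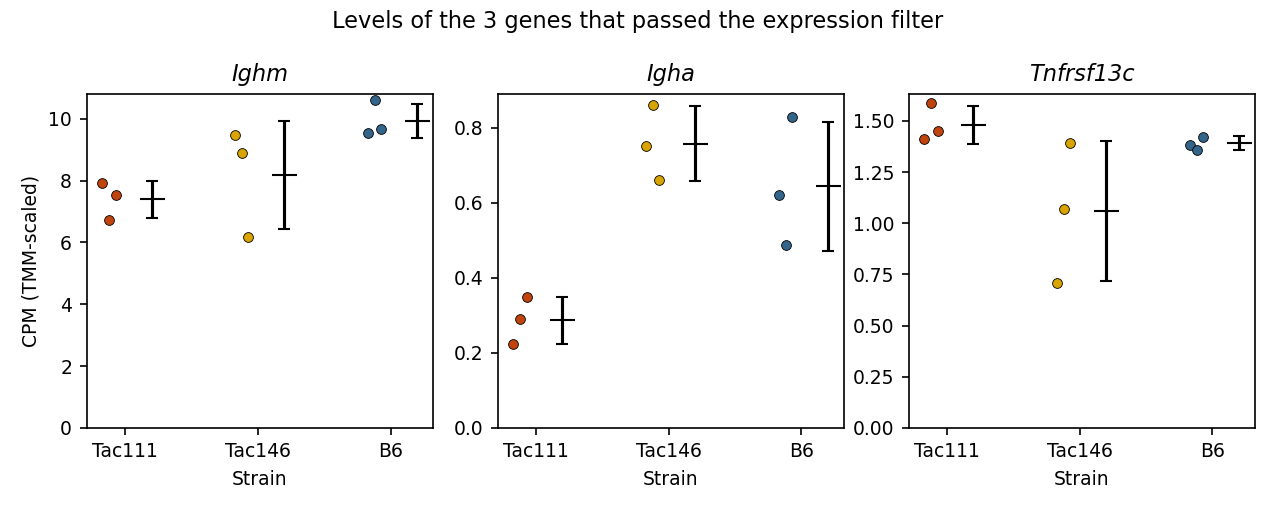
Level in CPM (vertical axes, from 0, scaled separately for each gene) of Ighm, Igha and Tnfrsf13c, the 3 of the 9 genes with enough counts to be tested. Points are libraries, and the bar beside them is the mean with its SD over the 3 libraries of a strain. The Igha libraries of Tac111 lie at 0.224 to 0.349 CPM, below those of Tac146 (0.661 to 0.86 CPM) and B6 (0.487 to 0.828 CPM).

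Igha fell 2.59-fold in Tac111 against Tac146 (a log2 fold change of -1.37, SE 0.31, interval -2.07 to -0.68, edgeR adjusted p = 0.0288). Without Tac146 replicate 4 it was -1.46 (adjusted p = 0.0451). It was 1 of 3 tested genes of the 9 called in this comparison, beside 8.89% of all genes tested, of which 6.27% were lower in Tac111. Against B6 the log2 fold change of Tac111 was -1.15 (SE 0.32, interval -1.87 to -0.43), with an edgeR adjusted p = 0.0828, which missed the threshold. The unadjusted p of that edgeR fit was 0.00492. Tac146 over B6 gave 0.22 (SE 0.28, interval -0.4 to 0.84, adjusted p = 0.864). The comparisons of Tac111 share the Tac111 libraries, so their values are not independent.

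The call for Igha in Tac111 against Tac146 was close to its threshold. It was made in 11 of 17 alternative fits, with adjusted p from 0.0223 to 0.0864, and it was lost without Tac111 replicate 1, 2 or 3 (adjusted p = 0.0711, 0.0795 and 0.0661), without Tac146 replicate 3 (0.0864), in a fit to the 6 libraries of the comparison (0.0501) and with the replicate numbers as a block (0.0832).

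Transcripts of other leukocytes differed in the same comparison. Ptprc, the gene of the leukocyte antigen CD45, stood at 4.49 to 5.06 CPM in Tac111, 10.1 to 12.5 CPM in Tac146 and 10.8 to 11.9 CPM in B6. The 13 genes of ILC1 and natural killer cells summed to 6.37 to 8.85 CPM in Tac111, 24.9 to 30.7 CPM in Tac146 and 22.8 to 28.7 CPM in B6, and 8 of the 13, among them the receptor gene Ncr1, had no count in Tac111. Of 8 tested, 7 fell in Tac111 against Tac146, such as Il2rb with a log2 fold change of -6.08 (edgeR adjusted p = 0.000121). Of all genes tested there, 8.89% were called in either direction and 6.27% were called lower in Tac111. Of 11 tested macrophage and dendritic cell genes, 4 fell, such as Itgax with -2.18 (adjusted p = 0.000212). That count was 7 without Tac146 replicate 4, and 2 without Tac111 replicate 2, Tac146 replicate 2 or 3, or B6 replicate 1. The part of these cells in the difference of Igha was not tested.

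**Figure D3:**
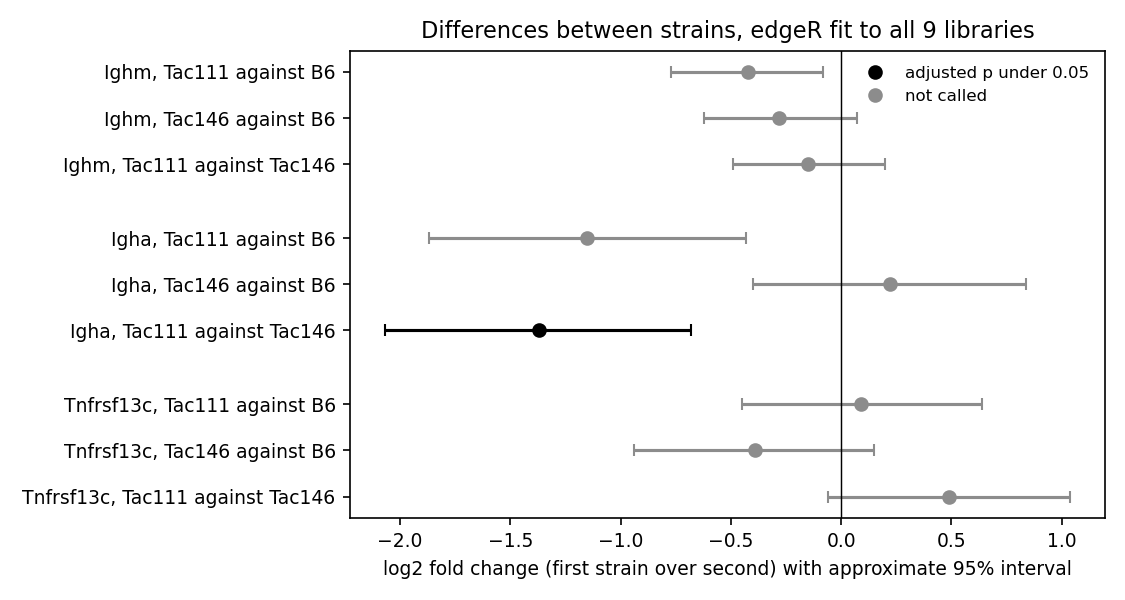
Log2 fold change (horizontal axis, first-named strain over the second) with its approximate 95% interval for Ighm, Igha and Tnfrsf13c in the 3 comparisons of strains, from the edgeR fit to all 9 libraries. Igha in Tac111 against Tac146, drawn in black at -1.37, is the difference that passed the threshold of 0.05.

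In Tac111 against B6, 0 of the 3 tested genes were called, beside 3.81% of all genes tested, with 2 at an unadjusted p under 0.05 and 0 called by DESeq2 or limma. In Tac146 against B6, 0 of 3 were called, beside 0.303% of all genes tested, with 0 at an unadjusted p under 0.05 and 0 called by DESeq2 or limma. Their median log2 fold change was -0.42 in Tac111 against B6, -0.28 in Tac146 against B6 and -0.15 in Tac111 against Tac146, where the median of all genes tested was 0.02, 0.01 and 0.02. The other 6 genes did not pass the filter on low counts and have no part in these counts and medians.

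Igkc (chromosome 6, 70726435 to 70726966, plus strand), the constant region of the kappa light chain, was counted in B6 libraries only. It had 0 counts in each Tac111 library and 0 in each Tac146 library, against 2, 9 and 4 counts in B6. Ratios were formed with 3 counts over a strain as the limit that a count of 0 allows, and 15 B6 counts taken as exact. On these terms Igkc was 4.63-fold lower in Tac111 than in B6 and 6.11-fold lower in Tac146, or 3.86-fold without Tac146 replicate 4. The counting interval of the 15 B6 counts was 8.4 to 24.7, so these folds are not lower bounds. The B6 level was 0.164 ± 0.136 CPM (SD, n = 3), and B6 replicate 2 held 9 of the 15 counts.

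An exact two-sided permutation test of Igkc gave p = 0.1 for Tac111 against B6 and p = 0.1 for Tac146 against B6, the smallest value that 3 libraries against 3 can give. In an edgeR fit without a filter on low counts, over 27531 genes, the adjusted p was 0.0903 for Tac111 against B6 and 0.259 for Tac146 against B6. Both miss the threshold, and the difference rests on 15 counts in the 3 B6 libraries.

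The scarcity of light chain counts beside heavy chain counts held in all 3 strains. Per kilobase of exon, Ighm stood at 3.93 CPM in Tac111, 4.3 in Tac146 and 5.24 in B6, and Igkc at 0 in Tac111, 0 in Tac146 and 0.28 in B6. The 8 heavy chain constant genes together had 740 counts in Tac111, 1127 in Tac146 and 1119 in B6. The 4 light chain constant genes had 0 in Tac111, 1 in Tac146 and 19 in B6. The light chain share of constant region counts was 0% in Tac111 (exact 95% binomial interval up to 0.497%), 0.0887% in Tac146 (0.00224 to 0.493%) and 1.67% in B6 (1.01 to 2.6%).

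Assembled antibody transcripts carry a variable segment, and counts on such segments were close to absent. Over 380 names of variable, diversity and joining segments there was 1 count in Tac111, 0 in Tac146 and 4 in B6. Per library the sum was 0 or 1 in Tac111, 0 in Tac146 and 1 or 2 in B6. Near-identical segments can share or lose reads in such counting, so these sums are uncertain.

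**Figure D4:**
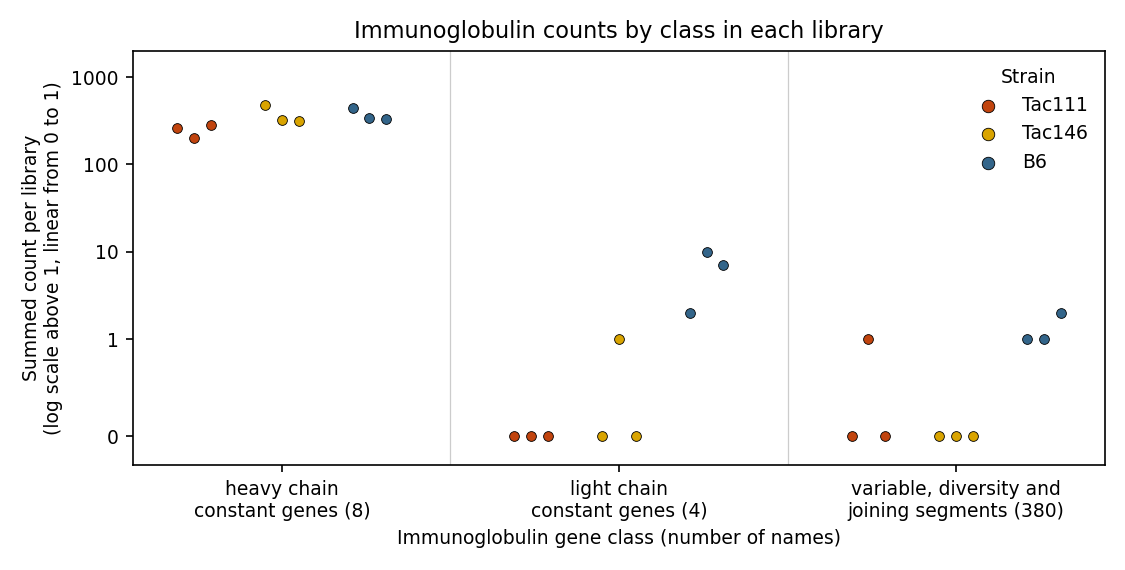
Summed counts per library (vertical axis, logarithmic above 1 and linear from 0 to 1) of 8 heavy chain constant genes, 4 light chain constant genes and 380 variable, diversity and joining segments. Heavy chain sums run from 198 to 484 in all strains, light chain sums reach 2 to 10 in B6 and 0 or 1 in Tac111 and Tac146, and segment sums are 0 to 2.

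Among the other heavy chain constant genes, Ighd of immunoglobulin D passed the filter on low counts. It had 0.123 ± 0.095 CPM in Tac111, 0.192 ± 0.0903 CPM in Tac146 and 0.385 ± 0.0467 CPM in B6 (SD, n = 3 each). Its log2 fold change was -1.57 for Tac111 over B6 (SE 0.54, edgeR adjusted p = 0.142) and -1.02 for Tac146 over B6 (SE 0.49, adjusted p = 0.736), so neither was called. Ighg1, Ighg2b and Ighg2c of immunoglobulin G had 5, 0 and 4 pooled counts in Tac111, 4, 3 and 6 in Tac146 and 3, 8 and 7 in B6. Ighg3 had 0 counts in all 9 libraries. Of the 12 constant region genes, 3 were tested, and Igha in Tac111 against Tac146 was the one call in the 3 comparisons.

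Jchain (chromosome 5, 88519809 to 88527891, minus strand) encodes the chain that joins units of secreted immunoglobulin A and M. It had 1, 2 and 6 counts in Tac111, 2, 1 and 1 in Tac146 and 3, 4 and 4 in B6. The Tac146 libraries lay below the B6 libraries without overlap, as did 6.29% of all genes tested, with a ratio of pooled counts per total of 0.298 (exact 95% counting interval 0.0691 to 1.0) and an exact two-sided permutation p = 0.1, the smallest possible. Without Tac146 replicate 4 the ratio was 0.354 (0.0633 to 1.34). For Tac111 over B6 the ratio was 0.884 (0.324 to 2.35), and those libraries overlapped.

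Mzb1 (chromosome 18, 35647267 to 35649367, minus strand) encodes a protein of the endoplasmic reticulum that helps plasma cells and marginal zone B cells to assemble antibody. It had 0, 6 and 3 counts in Tac111, 3, 8 and 5 in Tac146 and 0, 1 and 2 in B6. The Tac146 libraries lay above the B6 libraries without overlap, as did 6.36% of all genes tested, with a ratio of 4.37 (1.25 to 23.4) and an exact two-sided permutation p = 0.1. Without Tac146 replicate 4 the ratio was 4.75 (1.26 to 26.5). Of the 50-base stretches of Mzb1, 53.5% also belong to an overlapping gene on the same strand, SPATA24. That gene had 6, 0 and 0 counts in Tac111, 0 in each Tac146 library and 6, 7 and 0 in B6. The split of shared reads between these genes was not tested. The counts of Mzb1, and its ratio of Tac146 over B6, are therefore uncertain. Over Cd79a, Cd79b, Igkc, Jchain and Mzb1, 14 such permutation tests were run, and none passed the threshold of 0.05, which 3 libraries against 3 cannot reach.

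Further genes of B cell identity and receptor signalling were scarce where they are most particular to B cells. Pax5, a transcription factor that commits cells to the B lineage, had 0 pooled counts in Tac111, 3 in Tac146 and 8 in B6. Cd22, an inhibitory receptor of B cells, had 1 in Tac111, 8 in Tac146 and 3 in B6. Blk, a kinase of B cells that some T cells also use, had 2 in Tac111, 2 in Tac146 and 23 in B6, and is named here after its values were seen. Ebf1, a B lineage factor that stromal cells also express, stood at 7.88 ± 0.94 CPM in Tac111, 9.57 ± 3.02 CPM in Tac146 and 11.5 ± 1.82 CPM in B6 (SD, n = 3 each), with an edgeR adjusted p = 0.189 for Tac111 over B6.

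Of 30 genes on that list, 21 were tested, and in Tac111 against B6 5 fell and 0 rose, beside 3.81% of all genes called in either direction, with a median log2 fold change of -0.51 where the median of all genes was 0.02. Cd72, a B cell surface receptor that macrophages and dendritic cells also carry, had 0.826 ± 0.24 CPM in Tac111 and 2.45 ± 0.393 CPM in B6 (a log2 fold change of -1.56 with SE 0.23, edgeR adjusted p = 0.0047). Ciita, the master regulator of MHC class II genes, had 1.43 ± 0.275 CPM in Tac111 and 3.99 ± 0.675 CPM in B6 (-1.47, SE 0.2, adjusted p = 0.00249). Lyn, a kinase of B cells and myeloid cells, had 5.1 ± 0.2 CPM in Tac111 and 9.16 ± 1.84 CPM in B6 (-0.84, SE 0.15, adjusted p = 0.0129). Ikzf3, a lymphocyte transcription factor, and Spib, a factor of B cells and plasmacytoid dendritic cells, fell by 3.29 and 2.44 (log2; adjusted p = 0.0249 and 0.033).

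Cd72 and Ciita were called in all 18 alternative fits, while the count for the list ran from 2 to 7. It was 2 without Tac111 replicate 2 or 3, and 3 without B6 replicate 3 or with a filter of 1 CPM in 3 libraries. Lyn was called in 16 of 18 fits, failing without Tac111 replicate 2 or 3 (adjusted p = 0.0649 and 0.0506). Spib and Ikzf3, with 7 and 6 pooled counts in Tac111 and 42 and 66 in B6, were called in 11 of 17 and 11 of 16 fits that tested them (highest adjusted p 0.134 and 0.114, each without Tac111 replicate 3).

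Other leukocytes are known to express these 5 genes too, and Ciita was also among 16 genes induced by interferon gamma, all of which fell in Tac111 against B6. Ms4a1, Pax5 and Cd79a, which are largely restricted to B cells, had 0, 0 and 1 pooled counts in Tac111 and 0, 8 and 7 in B6. Of all genes tested in Tac111 against B6, 3.81% were called in either direction. Of 11 tested T cell genes 5 fell there. Of 8 ILC1 and natural killer cell genes 7 fell, and of 11 macrophage and dendritic cell genes 2 fell. Over the 18 alternative fits these counts ran from 2 to 9, from 5 to 9 and from 2 to 5, and without Tac146 replicate 4 they were 7, 8 and 5. Their part in the lower list was not tested.

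**Figure D5:**
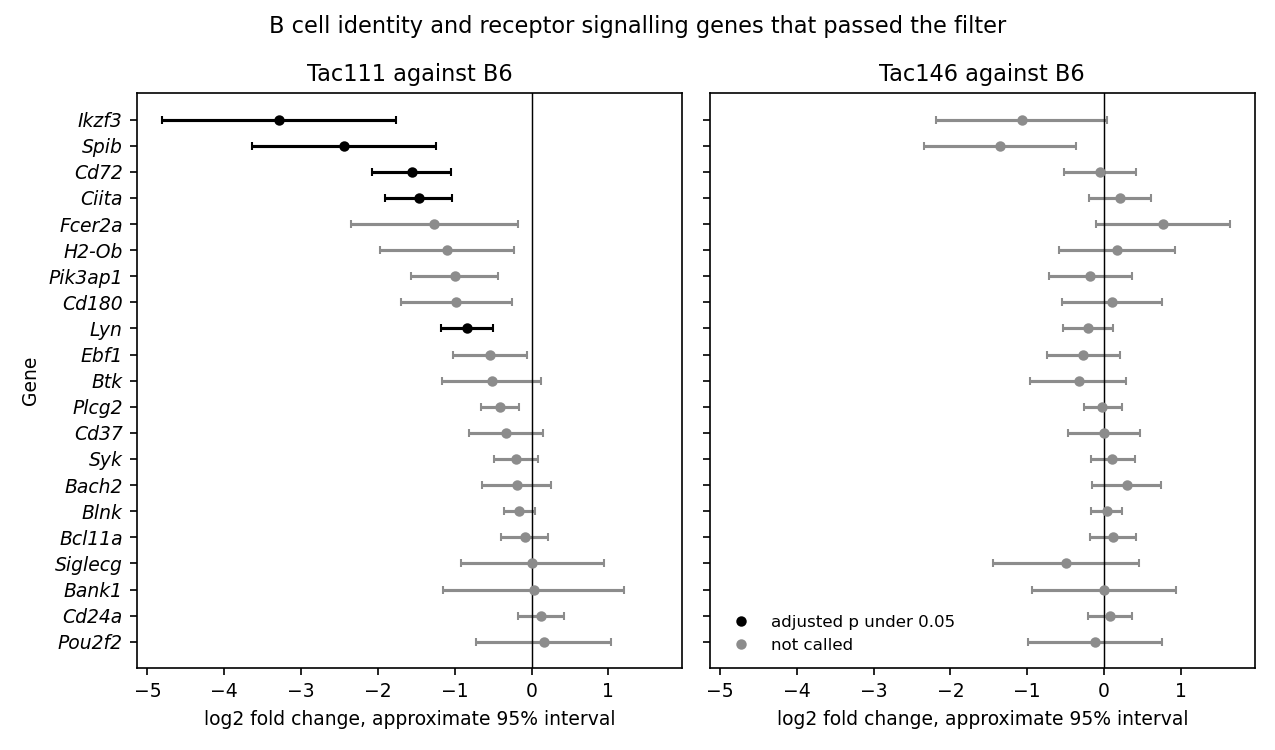
Log2 fold change (horizontal axis) with its approximate 95% interval for the 21 tested genes of B cell identity and receptor signalling, for Tac111 against B6 on the left and Tac146 against B6 on the right. Black marks adjusted p under 0.05, which holds for Ikzf3, Spib, Cd72, Ciita and Lyn on the left and for no gene on the right.

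In Tac146 against B6, edgeR called 0 of the 21, as did DESeq2 and limma, with 1 at an unadjusted p under 0.05 and a median log2 fold change of 0.00 where the median of all genes was 0.01. Cd72 stood at 2.38 ± 0.0731 CPM in Tac146 and 2.45 ± 0.393 CPM in B6, and Ciita at 4.6 ± 0.551 CPM in Tac146 and 3.99 ± 0.675 CPM in B6 (SD, n = 3 each). In Tac111 against Tac146, 4 fell and 0 rose, with a median of -0.39 where the median of all genes was 0.02. Of all genes tested there, 8.89% were called in either direction and 6.27% were called lower in Tac111. The 4 genes were Cd72 (log2 fold change -1.51, edgeR adjusted p = 0.00431), Ciita (-1.68, 0.00091), Lyn (-0.63, 0.0348) and Fcer2a (-2.04, 0.0268), which encodes the low-affinity receptor for immunoglobulin E. The count of 4 was 2 without Tac111 replicate 1 or 3, without Tac146 replicate 3 or with the replicate block, 8 when genes of low count were kept, and 7 by DESeq2. Without Tac146 replicate 4, Fcer2a gave -2.08 (adjusted p = 0.0448) and Lyn -0.7 (0.0343). Lyn kept its call there in 12 of 18 fits (adjusted p up to 0.1) and Fcer2a in 13 of 17 (up to 0.107).

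Of the genes of plasma cells, 1 was called in the 3 comparisons. All 15 were tested, and edgeR called 0 in Tac111 against B6 (DESeq2 1, limma 0, 1 without Tac146 replicate 4, 3 at an unadjusted p under 0.05, median log2 fold change -0.09) and 0 in Tac146 against B6 (DESeq2 and limma 0, 3 at an unadjusted p under 0.05, median 0.15). In Tac111 against Tac146, 1 fell (DESeq2 2, limma 1, 6 at an unadjusted p under 0.05) and the median was -0.27. Of all genes tested there, 8.89% were called and 6.27% were called lower in Tac111, so 1 of 15 is near that share. The median of all genes was 0.02. The gene called on this list was Xbp1, a factor of the secretory stress response in plasma cells and many epithelia. It had 98.7 ± 3.76 CPM in Tac111 and 133.0 ± 6.43 CPM in Tac146 (log2 fold change -0.43, SE 0.09, edgeR adjusted p = 0.0207). That call was lost without Tac111 replicate 1, 2 or 3 (adjusted p = 0.0538, 0.0562 and 0.0562), without Tac146 replicate 3 (0.0703) and with the replicate block (0.0825). Several of the list were abundant in this tissue, such as Sdc1, a surface proteoglycan of plasma cells and of epithelium, at 522.0 ± 13.0 CPM in Tac111, 530.0 ± 77.7 CPM in Tac146 and 508.0 ± 38.5 CPM in B6. Tnfrsf17, which encodes the plasma cell receptor BCMA, stood at 0.206 ± 0.127 CPM in Tac111, 0.27 ± 0.177 CPM in Tac146 and 0.313 ± 0.13 CPM in B6.

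The ligands that bind the product of Tnfrsf13c and its relatives were measured alongside it. Tnfsf13b, which encodes BAFF, stood at 0.322 ± 0.156 CPM in Tac111, 0.609 ± 0.165 CPM in Tac146 and 0.532 ± 0.161 CPM in B6 (SD, n = 3 each). Tnfsf13, which encodes the related ligand APRIL, stood at 3.07 ± 0.661 CPM in Tac111, 4.09 ± 1.06 CPM in Tac146 and 3.55 ± 0.339 CPM in B6. The receptor gene Tnfrsf13b, which encodes TACI, stood at 0.724 ± 0.0684 CPM in Tac111, 0.797 ± 0.249 CPM in Tac146 and 1.5 ± 0.358 CPM in B6, with a log2 fold change of -1.04 for Tac111 over B6 (SE 0.28, edgeR adjusted p = 0.0765). Of these 5 ligand and receptor genes, edgeR, DESeq2 and limma each called 0 in each comparison, and edgeR had 1 at an unadjusted p under 0.05 in each comparison with B6 and 0 in Tac111 against Tac146.

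Of the genes that attract plasma cells making immunoglobulin A or carry their product, Ccl28 rose in Tac111. Ccl28, a chemokine of mucosal epithelium, had 0.996 ± 0.114 CPM in Tac111, 0.362 ± 0.185 CPM in Tac146 and 0.281 ± 0.0934 CPM in B6 (SD, n = 3 each). The log2 fold change was 1.82 for Tac111 over B6 (SE 0.39, edgeR adjusted p = 0.0264) and 1.43 for Tac111 over Tac146 (SE 0.36, adjusted p = 0.0392). Against B6 the call was lost without any 1 of the Tac111 or B6 libraries (adjusted p = 0.0557 to 0.114). Against Tac146 it was lost without any 1 library other than Tac146 replicate 2 (0.051 to 0.125), with the replicate block (0.113) and in a fit to 6 libraries (0.0692). Pigr, the receptor that carries immunoglobulin A across epithelium, had 14 pooled counts in Tac111, 14 in Tac146 and 6 in B6. Ccr10, the receptor for Ccl28 on plasma cells, had 7 in Tac111, 18 in Tac146 and 13 in B6. Of 6 tested genes on this list, Ccl28 was the one called. Of all genes tested, 3.81% were called in Tac111 against B6 and 8.89% in Tac111 against Tac146.

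Genes of B cell precursors were few in counts apart from Il7r, Myb, Rag1 in Tac146 and Rag2 in Tac111. Vpreb1 and Igll1, which encode the surrogate light chain of pre-B cells, had 10 and 8 pooled counts in Tac111, 10 and 9 in Tac146 and 11 and 7 in B6. Il7r, the interleukin 7 receptor of lymphoid precursors, T cells and innate lymphoid cells, had 0.358 ± 0.0654 CPM in Tac111, 2.56 ± 0.512 CPM in Tac146 and 2.16 ± 0.63 CPM in B6, and fell in Tac111 against B6 by 2.61 in log2 units (SE 0.3, edgeR adjusted p = 0.00112). Of 4 tested genes on this list, Il7r, Rag1 and Rag2 were called in at least 1 comparison and Myb in none. Rag1 was called higher in Tac146 than in B6 (205 against 3 pooled counts). Rag2 was called higher in Tac111 than in B6 (173 against 0). Of all genes tested, 3.81% were called in Tac111 against B6, 0.303% in Tac146 against B6 and 8.89% in Tac111 against Tac146.

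Genes whose profiles over the 9 libraries lay close to those of the 3 tested genes were found by the root mean square difference of log2(CPM + 0.5), each profile centred on its own mean. For Ighm, Il16 (0.0722) and Apbb1ip (0.0754) were among the closest 3. For Igha the closest 3 were Arf6 (0.0797), Mrvi1 (0.0839) and Elovl5 (0.0909), and for Tnfrsf13c they were Mei1 (0.108), Slc35d2 (0.121) and Slc9a2 (0.123). The values describe 9 libraries that share strains and depth, and were ranked over 13110, 10092 and 13396 genes for Ighm, Igha and Tnfrsf13c.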

How the data were processed

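RNA of labial mucosa was sequenced in bulk after a stranded mRNA preparation, per the labels. The authors deposited expected counts by gene symbol. The submitters' processing notes name STAR, RSEM and GRCm38; no source used here gives versions, annotation or a strand setting. Symbols on several lines were summed (107), 27 date-like names were kept as given, and counts were rounded to whole numbers. Totals were 27192359 to 46456500 per library, and replicates differed by more than sampling noise (chi-square per degree of freedom 15.7 to 93.7).

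EdgeR 4.0.16 (quasi-likelihood test, TMM factors of 0.957 to 1.03, its own filter on low counts) in R 4.3.3 modelled all 9 libraries with a mean for each strain, leaving 6 residual degrees of freedom. Benjamini-Hochberg adjustment ran over the 16523 genes tested, with a threshold of 0.05. Library labels gave the strains. SEs are the log2 fold change divided by the root of F and are approximate. Counting intervals (95%) and the limit of 3 counts for a 0 cover counting error only. Alternatives were other factors, DESeq2 1.42.0, limma 3.58.1 on log2(CPM + 1), other filters, a replicate block, 6 libraries only, robust dispersions and each library left out. Their use on the lists and other named genes was added after seeing the data.

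The members and lists of genes were chosen with earlier results of these data known. From each list, up to 4 genes with the smallest p over the 3 strains could be named, with called genes of the B cell lists and the cell type markers; other genes were named for their role, and some are not reported here. Positions, exon lengths and 50-base stretches came from a GENCODE annotation of GRCm38. The tests were tested on simulated counts first. Python 3.11.15, pandas 2.3.3, scipy 1.17.1 and matplotlib 3.10.9 made the tables and figures.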

Additional observations from a re-analysis of the deposited data

How the results depend on the processing

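The number of the 9 genes called in Tac111 against Tac146 was 1 (Igha) in the fit as reported and 0 with a filter of 1 CPM in 3 libraries, under which Igha was not tested, with the replicate block and with only the 6 libraries of the comparison. Leaving out 1 library gave 0 or 1 call there, and 0 or 1 in Tac111 against B6, where the call was Ighm without Tac146 replicate 4 (adjusted p = 0.0482). In Tac146 against B6 no alternative called any of the 9. All 3 tested genes kept their sign in every alternative that tested them, and Igha in Tac111 against Tac146 ran from -1.55 to -0.45 on the log2 scale, the last on the log2(CPM + 1) scale. The labels share the numbers 1, 2 and 3 between Tac111 and B6, and 2 and 3 between these and Tac146, but same-numbered libraries had correlations of deviations from -0.0893 to 0.206, so the numbers were not taken to pair them. With the replicate block Igha in Tac111 against Tac146 gave -1.43 (adjusted p = 0.0832), and calls over all genes were 874, 44 and 632, against 630, 50 and 1469 without it, in Tac111 against B6, Tac146 against B6 and Tac111 against Tac146. DESeq2 called 1161, 131 and 2586. The higher share of all calls in Tac111 against Tac146 was 29.5%, and 42.6% with upper-quartile factors. The cause of these changes was not tested, apart from the filter. Depth limits the 6 untested genes, with 0 to 61 counts each.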

Other observations

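Genes of lymphoid tissue stroma, where B cells gather in follicles, were measured in the same libraries. Cxcl13, the chemokine that draws B cells into follicles, stood at 1.79 ± 0.975 CPM in Tac111, 1.97 ± 0.771 CPM in Tac146 and 2.12 ± 0.517 CPM in B6 (SD, n = 3 each), with an edgeR adjusted p = 0.772 for Tac111 over B6. Ccl21a, a chemokine of lymphatic vessels and lymph node stroma, stood at 62.0 ± 8.25 CPM in Tac111, 47.7 ± 13.9 CPM in Tac146 and 53.3 ± 6.49 CPM in B6. Ltb, a lymphocyte cytokine that shapes such stroma, fell in Tac111 against B6 by 3.67 in log2 units (SE 0.56, edgeR adjusted p = 0.00559). It was the one call among 4 tested genes in that comparison and in Tac111 against Tac146. The call against Tac146 was lost without Tac111 replicate 3 (edgeR adjusted p = 0.0718) or Tac146 replicate 3 (0.0523). Of all genes tested, 3.81% were called in Tac111 against B6 and 8.89% in Tac111 against Tac146.

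Of 13 salivary and mucous gland genes, 3 were tested, and the edgeR calls in Tac111 against Tac146 went in both directions. Smgc, Dcpp1, Dcpp2 and Dcpp3 had 0 counts in all 9 libraries. The mucin genes Muc5b and Muc19 had 1 and 9 pooled counts in Tac111, 5 and 13 in Tac146 and 0 and 8 in B6. Whether gland content differed between strains was not tested. Aqp5, a water channel of gland cells, had 21.1 ± 5.76 CPM in Tac111, 1.57 ± 0.657 CPM in Tac146 and 5.48 ± 1.89 CPM in B6 (SD, n = 3 each). Lpo, which encodes the lactoperoxidase of saliva, had 0.176 ± 0.1 CPM in Tac111, 6.77 ± 1.7 CPM in Tac146 and 0.565 ± 0.374 CPM in B6. Lpo rose in Tac146 against B6 by 3.51 in log2 units (SE 0.4, edgeR adjusted p = 0.00467, and by 3.3 without Tac146 replicate 4), and Aqp5 rose in Tac111 against B6 by 1.96 (SE 0.31, adjusted p = 0.00697). Of 9 tested genes of plasmacytoid dendritic cells, Bst2 and Irf8 fell in Tac111 against B6, where 3.81% of all genes were called. Siglech, a receptor particular to plasmacytoid dendritic cells, had 0.784 ± 0.183 CPM in Tac111 and 1.16 ± 0.235 CPM in B6 (edgeR adjusted p = 0.485). Of 8 keratinocyte and 8 skeletal muscle genes tested, edgeR and limma called 0 in each comparison. At an unadjusted p under 0.05 the edgeR fit had 0, 0 and 1 keratinocyte and 0, 2 and 5 muscle genes in Tac111 against B6, Tac146 against B6 and Tac111 against Tac146, and in the last of these DESeq2 called 1 and 5.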
